A study of Homo sapiens with 8 samples.

Results

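The genes described here are those of glucose breakdown and of the response to low oxygen: glucose carriers, glycolytic enzymes, lactate dehydrogenases, the oxygen sensor with its transcription factor, and well known targets of that factor. They were listed by name, 34 in all, and a gene was taken as measured where at least 1 row of the deposited table was annotated with its symbol alone. For each such gene the row with the highest mean over the 8 arrays was used. This gave 31 of the 34 genes, out of 33616 genes measured in the same way. The lactate carriers SLC16A1 and SLC16A3 were not analysed here, nor was PFKFB4, a regulator of phosphofructokinase whose row also names another gene.

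RNA came from HBL-1 and BJAB, both established human B-cell lymphoma lines, hybridised to Affymetrix arrays. The 4 groups of 2 arrays each were HBL-1 with APRIL, HBL-1 with EDA, BJAB with APRIL and BJAB with EDA. Either ligand was given at 1 µg/ml for 6 h, in RPMI1640 medium with fetal calf serum. APRIL belongs to the tumour necrosis factor ligands and binds receptors of B-lineage cells, and EDA, of the same family, was the control ligand with receptors of its own. No array of cells without a ligand was analysed here, so APRIL is only set against EDA. The labels name no treatment with low oxygen and no altered gene. HBL-1 is usually classed with lymphomas of activated B-cell type and BJAB with those of germinal-centre type, and each type is represented by 1 line, so a difference between the lines is not one between the types. Whether replicate arrays had separate cultures behind them is not in the labels, so the p-values measure the spread between arrays, which may be technical. RNA was taken from whole cultures, so fewer cells expressing a gene and less RNA per cell cannot be told apart.

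Glycolysis splits glucose into pyruvate, which is either reduced to lactate or passed to the mitochondria. In oxygen, prolyl hydroxylases of the EGLN family mark the HIF-1 alpha protein for destruction. When oxygen is low the protein escapes, pairs with its partner and binds a short DNA core, and many glycolytic genes are among its targets. This control acts mainly on the protein, so the RNA level of HIF1A is not a measure of its activity. Proliferating lymphoma cells often use glycolysis heavily even in air.

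The arrays correlated at 0.989 to 0.993 between replicates, at 0.988 to 0.993 between ligands within a line and at 0.942 to 0.946 between lines, over all genes. The B-cell markers CD79A, CD79B and PAX5 averaged 15.93, 16.84 and 13.77 on the log2 scale in HBL-1 and 15.46, 16.62 and 14.18 in BJAB. Of 7 measured B-cell markers, 2 were higher and 2 lower in HBL-1 at an adjusted p under 0.05. The higher ones were BLK (log2 difference 1.20) and CD79A (0.46), and the lower ones MS4A1 (-2.62, or 6.14-fold) and EBF1 (-1.43). Of 5 T-cell markers 2 were lower in HBL-1, and the log2 of their summed signal ran from 7.26 to 7.69 in HBL-1 arrays and from 7.97 to 8.74 in BJAB arrays. Of 4 epithelial and fibroblast markers 2 were higher in HBL-1, with summed signals of 9.98 to 10.85 in HBL-1 arrays and 9.40 to 9.98 in BJAB arrays. None of 5 myeloid markers passed, with 7.68 to 8.20 in HBL-1 arrays and 7.88 to 7.96 in BJAB arrays. The part of these markers in the results below was not tested. HBL-1 APRIL replicate 2 stood apart, with a median gene level of 5.74 against 5.58 to 5.66 on the other arrays, and with its 23 background rows at a median of 3.77 against 3.57 to 3.65. The count of positive responses and the largest responses in HBL-1 are given with and without it.

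Promoters of 5 genes are shown because their RNA differed most between the lines among the listed genes with an entry in the RefSeq table (assembly GRCh38.p14). Each line gives the 250 bases before the annotated start, 5′ to 3′ on the gene's own strand. Capitals mark ACGTG and GCGTG on either strand, the letters of the core that HIF binds. The EGLN1 window lies at chr1:231422288-231422537 (minus strand), ALDOC at chr17:28576896-28577145 (minus strand), ANKRD37 at chr4:185396591-185396840 (plus strand), BNIP3 at chr10:131981924-131982173 (minus strand) and SLC2A1 at chr1:42958869-42959118 (minus strand).
EGLN1: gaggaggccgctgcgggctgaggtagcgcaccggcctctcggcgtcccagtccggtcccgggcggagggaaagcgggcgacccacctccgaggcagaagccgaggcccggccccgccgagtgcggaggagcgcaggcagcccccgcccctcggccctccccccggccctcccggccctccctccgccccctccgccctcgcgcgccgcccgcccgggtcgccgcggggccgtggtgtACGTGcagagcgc
ALDOC: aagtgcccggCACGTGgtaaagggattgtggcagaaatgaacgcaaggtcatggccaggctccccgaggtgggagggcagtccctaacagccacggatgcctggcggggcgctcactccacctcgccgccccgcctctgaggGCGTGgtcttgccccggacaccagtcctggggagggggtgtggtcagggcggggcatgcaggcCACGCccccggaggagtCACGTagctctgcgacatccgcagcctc
ANKRD37: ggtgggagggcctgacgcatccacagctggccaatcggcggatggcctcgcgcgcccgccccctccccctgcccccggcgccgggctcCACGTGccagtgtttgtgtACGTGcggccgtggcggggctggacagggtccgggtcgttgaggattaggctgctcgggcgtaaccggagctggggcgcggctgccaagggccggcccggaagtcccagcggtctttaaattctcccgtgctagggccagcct
BNIP3: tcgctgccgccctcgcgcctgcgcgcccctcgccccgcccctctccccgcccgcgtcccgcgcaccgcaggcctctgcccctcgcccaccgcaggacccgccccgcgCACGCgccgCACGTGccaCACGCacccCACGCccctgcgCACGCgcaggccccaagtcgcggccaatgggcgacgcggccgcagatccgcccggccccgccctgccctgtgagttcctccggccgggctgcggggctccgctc
SLC2A1: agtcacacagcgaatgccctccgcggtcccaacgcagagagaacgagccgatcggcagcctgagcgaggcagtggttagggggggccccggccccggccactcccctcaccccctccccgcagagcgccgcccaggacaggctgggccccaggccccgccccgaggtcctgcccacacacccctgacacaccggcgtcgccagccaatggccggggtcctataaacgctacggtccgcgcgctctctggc
The EGLN1 window held 1 ACGTG, which begins 13 bases before the start. ALDOC held 3 matches of ACGTG and 2 of GCGTG, ANKRD37 held 3 of ACGTG, and BNIP3 held 2 of ACGTG and 4 of GCGTG. In ALDOC, ANKRD37 and BNIP3 a pair of the ACGTG matches overlaps as CACGTG, a palindrome that is also the E-box letters bound by factors such as MYC. The SLC2A1 window held no match to either motif. EGLN1, ALDOC, ANKRD37 and SLC2A1 were lower in HBL-1 and BNIP3 was higher. Whether the motifs have a part in these differences was not tested.

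Over all start sites of the 27 listed genes with an entry, ACGTG was found in 20 of 50 windows (40.0%), against 18.5% of the 35116 windows in RefSeq. For GCGTG the share was 14 of 50 (28.0%), against 32.2%. For either motif it was 28 of 50 (56.0%), against 43.2%. CACGTG was found in 8 of 50 (16.0%), against 6.3%. Windows of the same gene overlap in part, so these shares describe the sequences and were not tested. SLC2A3, VEGFA, BNIP3L and NDRG1 had no entry.

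Between the lines, 12 of the 31 genes passed the test at an adjusted p under 0.05 (38.7%), against 24.2% of all 33616 genes. Of these, 5 were higher in HBL-1 (10.3% of all genes were) and 7 were lower (13.9% of all genes were). EGLN1 and the glucose carriers SLC2A3 and SLC2A1 were far lower in HBL-1, and the mitophagy receptor gene BNIP3 and HIF1A were higher. The shared middle and lower steps of glycolysis, from TPI1 to LDHB, did not pass with the exception of PKM. Each difference is a log2 value, HBL-1 minus BJAB, averaged over both ligands with 4 arrays a line, from limma's moderated test with Benjamini-Hochberg adjustment over all genes. The median difference was -0.15 over the 31 genes (range -3.23 to 2.20) and 0.01 over all genes. The ranges of HBL-1 and BJAB arrays were separate for 15 of the 31 genes, 7 of them higher and 8 lower in HBL-1, and for 25.9% of all genes.

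**Figure D1:**
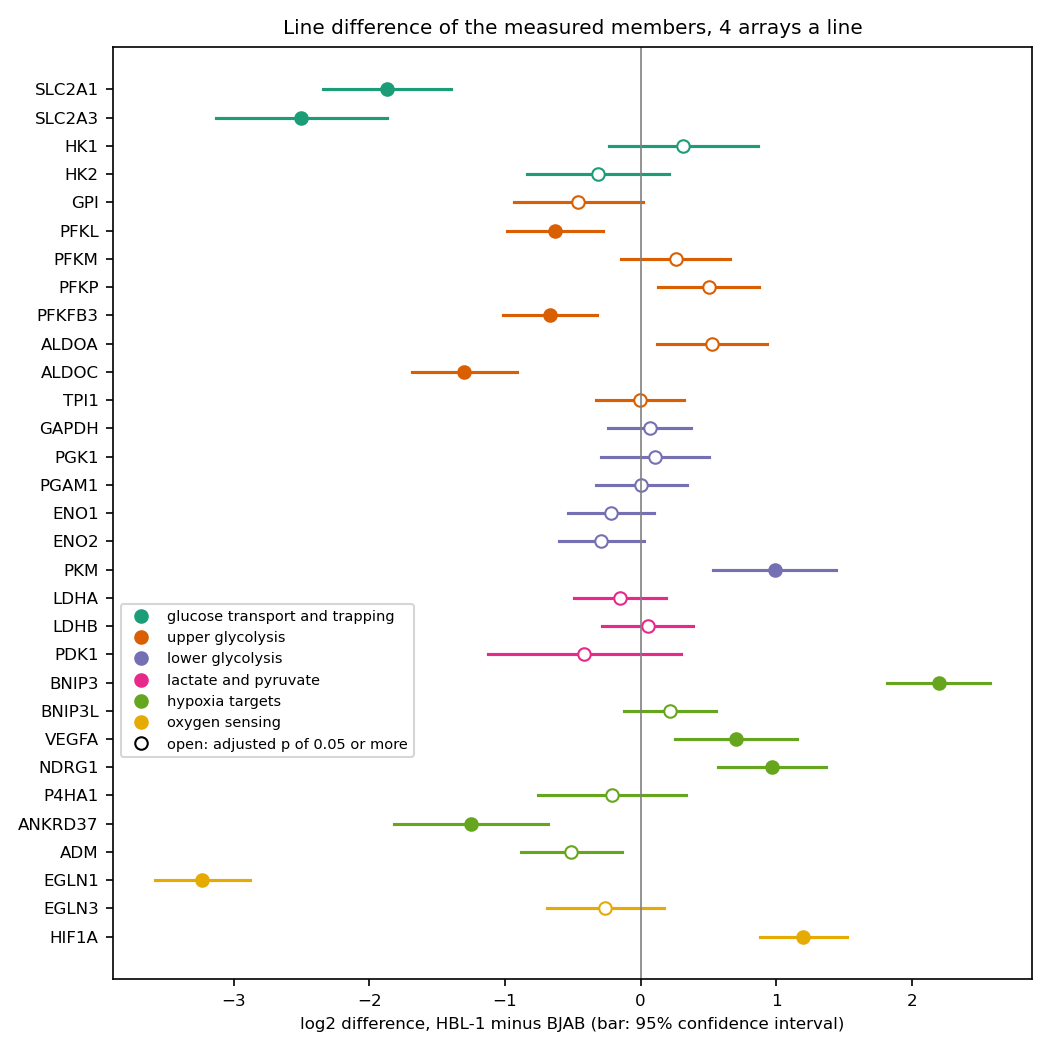
The log2 difference between HBL-1 and BJAB (HBL-1 minus BJAB) of each of the 31 measured genes is drawn as a point with its 95% confidence interval, coloured by role, and filled where the adjusted p was under 0.05. EGLN1 lies farthest to the left at -3.23 and BNIP3 farthest to the right at 2.20, while the genes of lower glycolysis other than PKM lie close to 0.

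The oxygen sensor showed the widest gap. EGLN1 encodes the main prolyl hydroxylase that marks HIF-1 alpha for destruction. Its log2 signal was 11.50 and 11.75 in HBL-1 with APRIL and 11.59 and 11.60 in HBL-1 with EDA, against 14.88 and 14.62 in BJAB with APRIL and 15.10 and 14.77 in BJAB with EDA. Every HBL-1 array was lower than every BJAB array, by a mean of 9.4-fold (log2 difference -3.23, SE 0.16, 95% confidence interval -3.58 to -2.88, adjusted p = 1.29e-07). HIF1A, which encodes the oxygen-regulated subunit itself, read 14.55 and 14.53 in HBL-1 with APRIL and 14.24 and 14.45 in HBL-1 with EDA, against 13.25 and 13.23 in BJAB with APRIL and 13.35 and 13.13 in BJAB with EDA. The groups did not overlap, and HBL-1 was 2.3-fold higher (1.20, SE 0.14, adjusted p = 0.000123). EGLN3, a prolyl hydroxylase that is itself induced by hypoxia, averaged 5.43 ± 0.38 in HBL-1 and 5.69 ± 0.29 in BJAB (SD, n = 4 each). It did not pass (-0.26, interval -0.69 to 0.17, adjusted p = 0.412), and its other rows differed by -0.46 and 0.09.

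Of the wider oxygen-sensing machinery, 12 of 14 listed genes were measured. They were other HIF subunits, the hydroxylases EGLN2 and HIF1AN, the VHL ligase parts, CITED2 and the coactivator CREBBP. None was higher and 2 were lower in HBL-1: ELOB, an elongin subunit of the VHL ligase (-0.77, adjusted p = 0.00215), and CITED2, which competes with HIF for its coactivators (-0.63, adjusted p = 0.0114). Over all genes 24.2% passed between the lines. The median difference over the 12 was -0.06. EGLN2 (-0.08, adjusted p = 0.811) and HIF1AN (0.34, adjusted p = 0.189) did not pass. EGLN2, HIF1AN and CREBBP are named here after their values were seen.

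The glucose carriers were both lower in HBL-1. SLC2A3 encodes GLUT3, a carrier with high affinity for glucose. It read 5.58 and 5.89 in HBL-1 with APRIL and 5.83 and 5.81 in HBL-1 with EDA, against 7.78 and 9.04 in BJAB with APRIL and 8.59 and 7.70 in BJAB with EDA. The BJAB arrays ranged from 7.70 to 9.04, and every HBL-1 array lay below them (-2.50, SE 0.28, 5.66-fold lower, adjusted p = 7.82e-05). SLC2A1 encodes GLUT1, the basal carrier of many cells, and read 8.17 and 7.73 in HBL-1 with APRIL and 7.78 and 7.87 in HBL-1 with EDA, against 10.09 and 9.46 in BJAB with APRIL and 9.40 and 10.08 in BJAB with EDA. Again no arrays overlapped (-1.87, SE 0.21, 3.65-fold lower, adjusted p = 8.02e-05). The hexokinases, which trap glucose by phosphorylating it, did not pass, with HK1 at 0.31 (interval -0.23 to 0.86) and HK2 at -0.32 (interval -0.84 to 0.21). These intervals include differences of more than 0.8 in size.

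In the upper part of glycolysis 3 of 8 genes passed, all lower in HBL-1. Over all genes 24.2% passed and 13.9% were lower. ALDOC encodes the aldolase form best known from brain. It read 7.67 and 8.25 in HBL-1 with APRIL and 7.71 and 8.07 in HBL-1 with EDA, against 9.15 and 9.12 in BJAB with APRIL and 9.26 and 9.36 in BJAB with EDA. The lines did not overlap (-1.30, 2.46-fold lower, adjusted p = 0.000275). ALDOA, the form most cells rely on, leaned the other way, 13.15 ± 0.31 in HBL-1 and 12.62 ± 0.06 in BJAB, and did not pass although the arrays did not overlap (0.52, interval 0.12 to 0.93, adjusted p = 0.0642). It passed in 6 of 19 alternatives, namely without HBL-1 APRIL replicate 1 (0.70, adjusted p = 0.0114), without dim genes, with each of the 3 other normalizations and with trend and robust shrinkage (adjusted p of 0.0149 to 0.046 in these 5).

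Phosphofructokinase, which commits the sugar to glycolysis, has 3 subunit genes that did not move together. PFKL, the liver form, averaged 10.03 ± 0.34 in HBL-1 and 10.66 ± 0.27 in BJAB (-0.63, SE 0.16, adjusted p = 0.0141). The lines overlapped, with HBL-1 APRIL replicate 2 at 10.48 above BJAB APRIL replicate 2 at 10.31. The gap was -1.09 under EDA (adjusted p = 0.00682) and -0.18 under APRIL (adjusted p = 0.692), and PFKL did not pass without BJAB EDA replicate 1 (-0.59, adjusted p = 0.0598) or without BJAB APRIL replicate 1 (-0.55, adjusted p = 0.0624). PFKP, the platelet form, averaged 15.54 ± 0.17 in HBL-1 and 15.04 ± 0.23 in BJAB, with no overlap, and just missed the threshold (0.50, interval 0.13 to 0.88, adjusted p = 0.0546). It too passed in 6 of 19 alternatives, namely without BJAB APRIL replicate 1 (0.63, adjusted p = 0.0356) and with the same 5 other settings as ALDOA (adjusted p of 0.00391 to 0.0442). PFKM, the muscle form, differed by 0.26 (interval -0.15 to 0.66).

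PFKFB3 makes the sugar bisphosphate that activates phosphofructokinase. It read 7.75 and 7.56 in HBL-1 with APRIL and 7.43 and 7.60 in HBL-1 with EDA, against 8.53 and 8.11 in BJAB with APRIL and 8.14 and 8.23 in BJAB with EDA. All HBL-1 arrays were lower (-0.67, 1.59-fold, adjusted p = 0.00986). With the arrays of 1 ligand alone the difference stayed at -0.67 but missed the threshold (adjusted p = 0.0718 under EDA and 0.0698 under APRIL). GPI, which isomerises the trapped glucose, differed by -0.46 (adjusted p = 0.168). It passed without HBL-1 APRIL replicate 2, the array that stood apart (-0.71, adjusted p = 0.00858). TPI1, the triose isomerase, averaged 15.74 ± 0.14 over HBL-1 arrays and 15.74 ± 0.06 over BJAB arrays.

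**Figure D2:**
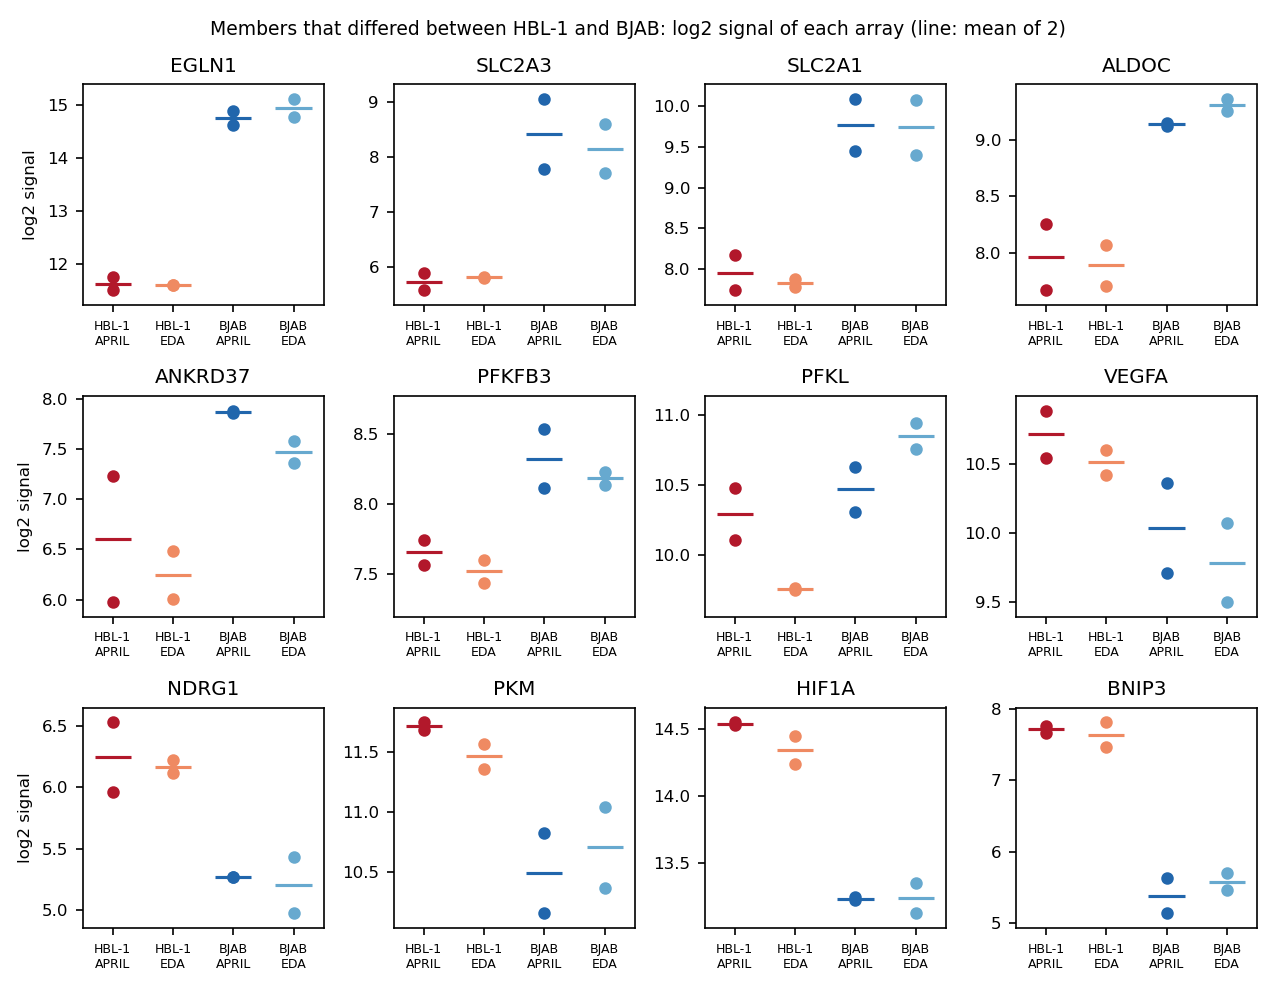
The log2 signal of each array is plotted for the 12 genes that passed between the lines, in the order HBL-1 with APRIL, HBL-1 with EDA, BJAB with APRIL and BJAB with EDA, with a line at the mean of the 2 arrays. The vertical axes differ between panels. PFKL is the panel where arrays of the lines overlap, and in ANKRD37 the upper HBL-1 APRIL array, at 7.23, is nearest to the BJAB arrays.

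The signals of the lower steps of glycolysis, which make ATP, differed little. PGK1 averaged 10.88 over the 8 arrays. Far brighter were GAPDH at 18.38, ENO1 at 17.07 and PGAM1 at 15.49, where the highest value in the data was 19.38. TPI1, LDHA and LDHB averaged 15.51 to 15.78. Whether signals this bright follow the amount of RNA in full was not tested. GAPDH (0.07, interval -0.24 to 0.37), PGK1 (0.11, interval -0.29 to 0.51) and PGAM1 (0.01, interval -0.33 to 0.34) did not pass. ENO1 differed by -0.22 and ENO2 by -0.29, and in both every HBL-1 array was lower than every BJAB array without the test being passed (adjusted p = 0.334 and 0.19). The other ENO1 row differed by -0.26. Its arrays overlapped between the lines, over 10.95 to 13.09 in HBL-1 and 12.10 to 12.34 in BJAB. ENO2, the neuronal enolase, read 4.02 to 4.22 in HBL-1 arrays and 4.30 to 4.55 in BJAB arrays, close to the background rows, whose medians ran from 3.57 to 3.77 over the arrays. Several of these genes have many processed pseudogenes, and signal from copies cannot be told apart here. The PGAM1 row carries no gene number and an identifier that points to chromosome 12, where RefSeq places PGAM1 on chromosome 10, and the other PGAM1 row differed by 0.23.

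PKM was the exception among the lower steps. It encodes pyruvate kinase, which makes pyruvate, and this row does not separate its splice forms. It read 11.68 and 11.74 in HBL-1 with APRIL and 11.36 and 11.57 in HBL-1 with EDA, against 10.82 and 10.16 in BJAB with APRIL and 11.04 and 10.37 in BJAB with EDA. The lines did not overlap (0.99, SE 0.20, 1.98-fold higher, adjusted p = 0.00466), and with the EDA arrays alone PKM did not pass (0.76, adjusted p = 0.118).

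At the fate of pyruvate none of the 3 measured genes passed. LDHA, the lactate dehydrogenase subunit favoured in glycolytic cells, differed by -0.15 (interval -0.49 to 0.19) and LDHB, the heart-type subunit, by 0.05 (interval -0.28 to 0.39). PDK1 encodes a kinase that inactivates pyruvate dehydrogenase and is induced by hypoxia. It spread widely within the lines, over 6.96 to 8.58 in HBL-1 arrays and 7.26 to 9.01 in BJAB arrays (-0.42, interval -1.13 to 0.30).

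The targets of the hypoxia response split in direction, with 3 higher, 1 lower and 3 not passing. Among all genes 10.3% were higher and 13.9% lower. BNIP3, which recruits mitochondria for degradation, read 7.77 and 7.66 in HBL-1 with APRIL and 7.47 and 7.82 in HBL-1 with EDA, against 5.63 and 5.13 in BJAB with APRIL and 5.70 and 5.46 in BJAB with EDA. The lines did not overlap (2.20, SE 0.17, 4.59-fold higher, adjusted p = 4.69e-06). Its relative BNIP3L differed by 0.22 (interval -0.13 to 0.56, adjusted p = 0.386). NDRG1, a stress-responsive gene of the N-myc downstream-regulated family, averaged 6.21 ± 0.24 in HBL-1 and 5.24 ± 0.19 in BJAB, without overlap (0.97, adjusted p = 0.00227).

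VEGFA encodes the growth factor of blood vessels. It read 10.54 and 10.89 in HBL-1 with APRIL and 10.60 and 10.42 in HBL-1 with EDA, against 9.71 and 10.36 in BJAB with APRIL and 10.07 and 9.50 in BJAB with EDA. The lowest HBL-1 array, at 10.42, lay just above the highest BJAB array, at 10.36 (0.70, SE 0.20, adjusted p = 0.0282). It did not pass without HBL-1 EDA replicate 1 (0.66, adjusted p = 0.0834), HBL-1 EDA replicate 2 (0.75, 0.0544), HBL-1 APRIL replicate 2 (0.62, 0.0918), BJAB EDA replicate 2 (0.56, 0.112) or BJAB APRIL replicate 1 (0.54, 0.11), nor with the EDA arrays alone (0.73, 0.13) or the APRIL arrays alone (0.68, 0.154).

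ANKRD37, an ankyrin-repeat gene known as a HIF target, went the other way. It read 5.98 and 7.23 in HBL-1 with APRIL and 6.48 and 6.01 in HBL-1 with EDA, against 7.88 and 7.86 in BJAB with APRIL and 7.58 and 7.37 in BJAB with EDA. HBL-1 was lower on every array (-1.25, SE 0.25, 2.38-fold, adjusted p = 0.00426). ADM, the gene of the vasodilator peptide adrenomedullin, missed the threshold narrowly (-0.51, interval -0.88 to -0.14, adjusted p = 0.0507), and it passed in 6 of 19 alternatives, namely without HBL-1 APRIL replicate 2 (-0.63, adjusted p = 0.0249), without dim genes, with each of the 3 other normalizations and with array weights (adjusted p of 0.0286 to 0.0479 in these 5). P4HA1, a subunit of collagen prolyl hydroxylase, differed by -0.21 (interval -0.76 to 0.34).

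Genes of the same biology outside the 31 were followed by lists drawn from general knowledge. The counts of each list stand beside 10.3% of all genes higher in HBL-1 and 13.9% lower. Of 28 measured other hypoxia-induced genes, HBL-1 had 9 higher and 4 lower, with a median difference of 0.11. The circadian regulators RORA and BHLHE40 were 88.3-fold and 131-fold higher in HBL-1 (6.46 and 7.03), and AK4, a mitochondrial adenylate kinase, was 11.9-fold higher (3.58). BHLHE40 averaged 12.63 ± 0.36 in HBL-1 and 5.59 ± 0.77 in BJAB. The lower ones included DDIT4, an inhibitor of mTOR signalling (-1.45), STC2, a secreted stanniocalcin (-1.66), and HILPDA, a lipid-droplet protein (-0.998). The direction thus differed within the known hypoxia targets on both lists, as it did among all genes.

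The citric acid cycle and the entry of pyruvate into it had 24 measured genes, with 3 higher in HBL-1 and 8 lower (median difference -0.15). SDHD, a membrane subunit of succinate dehydrogenase, was 5.8-fold higher (2.54), DLAT, a subunit of pyruvate dehydrogenase, was higher by 1.83, and PDP1, the phosphatase that activates pyruvate dehydrogenase, by 0.74. Lower were the opposing kinases PDK3 (-1.98) and PDK2 (-1.80), and DLST of the oxoglutarate dehydrogenase complex (-1.565).

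Among 28 measured other glycolysis and gluconeogenesis genes 3 were higher and 2 lower (median 0.13). LDHC, the testis form of lactate dehydrogenase, averaged 8.92 ± 0.30 in HBL-1 and 5.92 ± 0.44 in BJAB (8.01-fold higher, adjusted p = 2.57e-06). TIGAR, which lowers the activator of phosphofructokinase, was higher by 1.13 and the monocarboxylate carrier SLC16A7 by 1.07. SLC2A6 (-1.83) and SLC2A8 (-1.05), further members of the glucose carrier family, were lower, while SLC2A2 (-0.31) and SLC2A4 (0.41) did not pass. SLC2A2 and SLC2A4 are named here after their values were seen. In the pentose phosphate pathway 1 of 9 measured genes was higher, TKT encoding transketolase (0.92), and 1 was lower, PRPS1 encoding a phosphoribosyl pyrophosphate synthetase (-0.62).

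Enzyme forms were then set side by side as the log2 ratio of 2 genes on the same array, and the ratio was compared between the lines with an exact permutation test over the 70 splits of the arrays into 4 and 4 (two-sided). A ratio of signals from different probes has no meaning as a level, so only its difference between HBL-1 and BJAB is given. Of 11 pairs 9 were measured, and 5 had ratios that did not overlap between the lines. These 5 reached an exact p of 0.0286, the smallest the permutation test can give, which became 0.0514 after Benjamini-Hochberg adjustment over the 9 pairs, so 0 of 9 passed. After quantile normalization or cyclic loess ENO2 over ENO1 also reached this smallest exact p. The adjusted p then became 0.0429 and 6 of 9 passed. Passing here was set by how many pairs reached the smallest p, so it says nothing more about the first 5.

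The ratio of EGLN3 to EGLN1 was higher in HBL-1 by 2.97, and that of BNIP3L to BNIP3 was lower by 1.98 (difference -1.98). For ALDOC over ALDOA the difference was -1.82, with the HBL-1 arrays at -2.14 to -1.52 and the BJAB arrays at -0.17 to 0.16 relative to the BJAB mean. PFKP over PFKL differed by 1.14 and PFKM over PFKL by 0.89, and these pairs share PFKL. LDHB over LDHA differed by 0.21 (exact p = 0.0857, adjusted p = 0.129). The ratios of SLC2A3 to SLC2A1 (-0.63, exact p = 0.371), HK2 to HK1 (-0.63, exact p = 0.286) and ENO2 to ENO1 (-0.07, exact p = 0.543) overlapped between the lines.

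**Figure D3:**
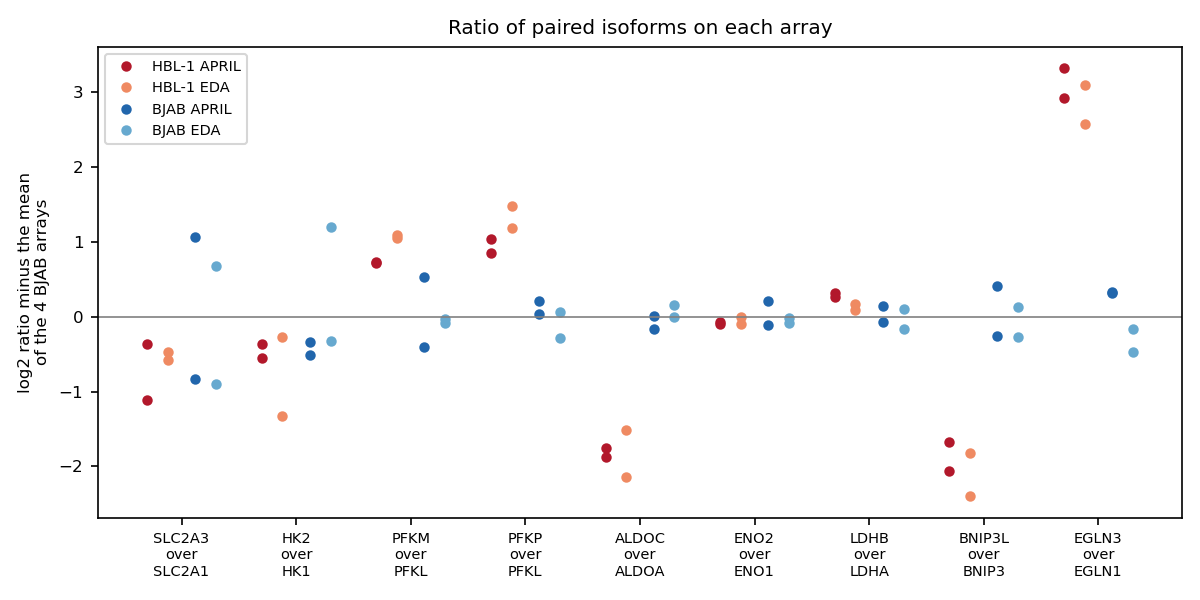
For each of the 9 pairs the log2 ratio of the named genes on every array is drawn as a point, with the mean of the 4 BJAB arrays set to 0 and the groups in the order HBL-1 with APRIL, HBL-1 with EDA, BJAB with APRIL, BJAB with EDA. EGLN3 over EGLN1 sits at 2.57 to 3.31 in HBL-1, while the BJAB arrays of SLC2A3 over SLC2A1 spread from -0.90 to 1.06.

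The comparison of APRIL with EDA asked whether the ligand changed these genes within 6 h. No member of the list passed in either line, nor with the lines averaged, nor in the difference between their responses. Over all genes limma called 1 of 33616 in HBL-1 (0.00297%), and the other contrasts gave 0 calls. At an unadjusted p under 0.05 there were 2967 genes in HBL-1, 1365 in BJAB, 2323 with the lines averaged and 1894 in the difference. Among the 31 genes, the numbers at an unadjusted p under 0.05 were 1 for HBL-1, 0 for BJAB, 0 for the averaged lines and 2 for the difference. With 2 arrays a group the median half-width of the 95% interval was 0.55 within a line before any adjustment, and a response of 0.88 did not pass.

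In HBL-1 the median response of the 31 genes was 0.13 and 28 were positive, against a median of 0.10 over all genes with 21425 of 33616 positive. Against the EDA mean, 29 of the 31 genes were higher in HBL-1 APRIL replicate 2 (median 0.28), as were 67.4% of all genes (median 0.18). In HBL-1 APRIL replicate 1 it was 17 of 31 (median 0.01), as were 52% of all genes (median 0.02). Without replicate 2, 17 of the 31 genes were positive, and after quantile normalization of all arrays it was 17 as well. After cyclic loess 22 were positive (median 0.02), and with the array medians made equal 25 were (median 0.06). APRIL and EDA arrays of HBL-1 did not overlap for 7 of the 31 genes, all higher with APRIL, where 36.5% of all genes did not overlap and 25.4% were higher.

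**Figure D4:**
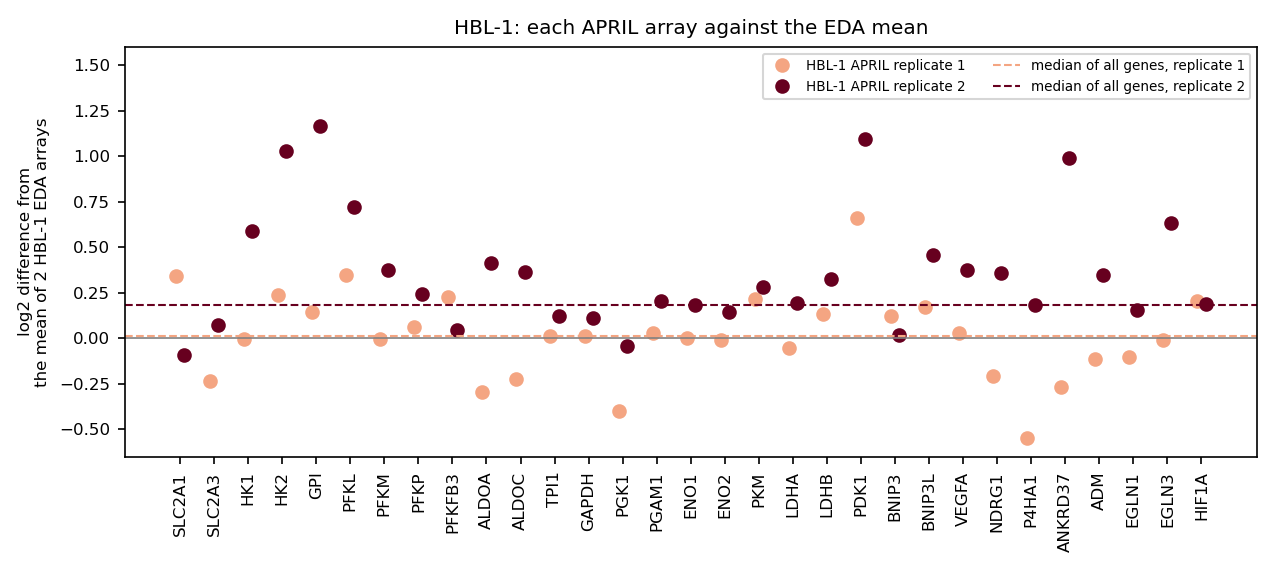
For each of the 31 genes the log2 difference of each HBL-1 APRIL array from the mean of the 2 HBL-1 EDA arrays is drawn, with dashed lines at the median of all genes on the same array. Replicate 2 lies above 0 for 29 genes and replicate 1 for 17.

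The largest HBL-1 response by size was that of PDK1, the pyruvate dehydrogenase kinase. It read 8.15 and 8.58 with APRIL, against 8.01 and 6.96 with EDA (0.88, interval -0.13 to 1.88, adjusted p = 0.611). The difference was 0.35 without HBL-1 EDA replicate 2, the array at 6.96, and 1.40 without HBL-1 EDA replicate 1. It was 0.66 without HBL-1 APRIL replicate 2 and 1.09 without HBL-1 APRIL replicate 1. GPI read 7.03 and 8.05 with APRIL, against 6.97 and 6.80 with EDA (0.66, adjusted p = 0.578), and the response was 0.14 without HBL-1 APRIL replicate 2, the array that stood apart, and 1.17 without HBL-1 APRIL replicate 1. HK2 read 7.36 and 8.15 with APRIL, against 6.88 and 7.36 with EDA (0.63, adjusted p = 0.617), and the response was 0.24 without HBL-1 APRIL replicate 2 and 1.03 without HBL-1 APRIL replicate 1. PFKL read 10.11 and 10.48 with APRIL, against 9.76 on both EDA arrays (0.54, interval 0.03 to 1.04, unadjusted p = 0.0384, adjusted p = 0.54). It was 0.35 without HBL-1 APRIL replicate 2.

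HIF1A and EGLN1, which differed most between the lines among the sensing genes, responded by 0.20 (interval -0.26 to 0.65) and 0.03 (interval -0.47 to 0.52) in HBL-1. The carriers SLC2A1 and SLC2A3 responded by 0.13 (interval -0.54 to 0.80) and -0.08 (interval -0.97 to 0.81). VEGFA responded by 0.20, or by 0.03 without HBL-1 APRIL replicate 2, and BNIP3 by 0.07. The lowest response was that of PGK1 (-0.22, interval -0.79 to 0.34). None of these passed.

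In BJAB 14 of the 31 genes were positive with a median of -0.01, against a median of 0.00 over all genes. Without BJAB APRIL replicate 2 the count was 20. HK1 read 7.86 and 7.50 with APRIL, against 7.42 and 6.47 with EDA (0.73, interval -0.04 to 1.51, unadjusted p = 0.0619, adjusted p = 1). The HK1 response was 0.26 without BJAB EDA replicate 2, the array at 6.47, and 1.20 without BJAB EDA replicate 1. PDK1 read 8.60 and 7.26 with APRIL, against 8.51 and 9.01 with EDA (-0.83, interval -1.84 to 0.18, adjusted p = 1). The PDK1 response was -0.16 without BJAB APRIL replicate 2, the array at 7.26, and -1.50 without BJAB APRIL replicate 1. EGLN3 differed by 0.46, ANKRD37 by 0.40 and PFKL by -0.38, none of them passing. The arrays of the ligands did not overlap for 8 of the 31 genes, 6 higher and 2 lower with APRIL, and for 34.3% of all genes. HIF1A stood at 13.24 on average with either ligand.

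The responses were set against each other by the interaction of line and ligand. PDK1 leaned up in HBL-1 and down in BJAB, a difference of responses of 1.71 (interval 0.28 to 3.13, unadjusted p = 0.0234, adjusted p = 0.844). It ranged from 1.04 without BJAB APRIL replicate 2 to 2.38 without BJAB APRIL replicate 1 as single arrays were left out. PFKL did likewise, with a difference of 0.92 (interval 0.21 to 1.62, unadjusted p = 0.0163, adjusted p = 0.843). Neither passed, and no gene of the 33616 did. On average over both lines the median response was 0.08 for the 31 genes and 0.05 for all genes. None of the genes on the lists of other glycolysis and gluconeogenesis enzymes, the pentose phosphate pathway, the citric acid cycle, oxygen sensing or other hypoxia-induced genes passed in any ligand contrast.

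**Figure D5:**
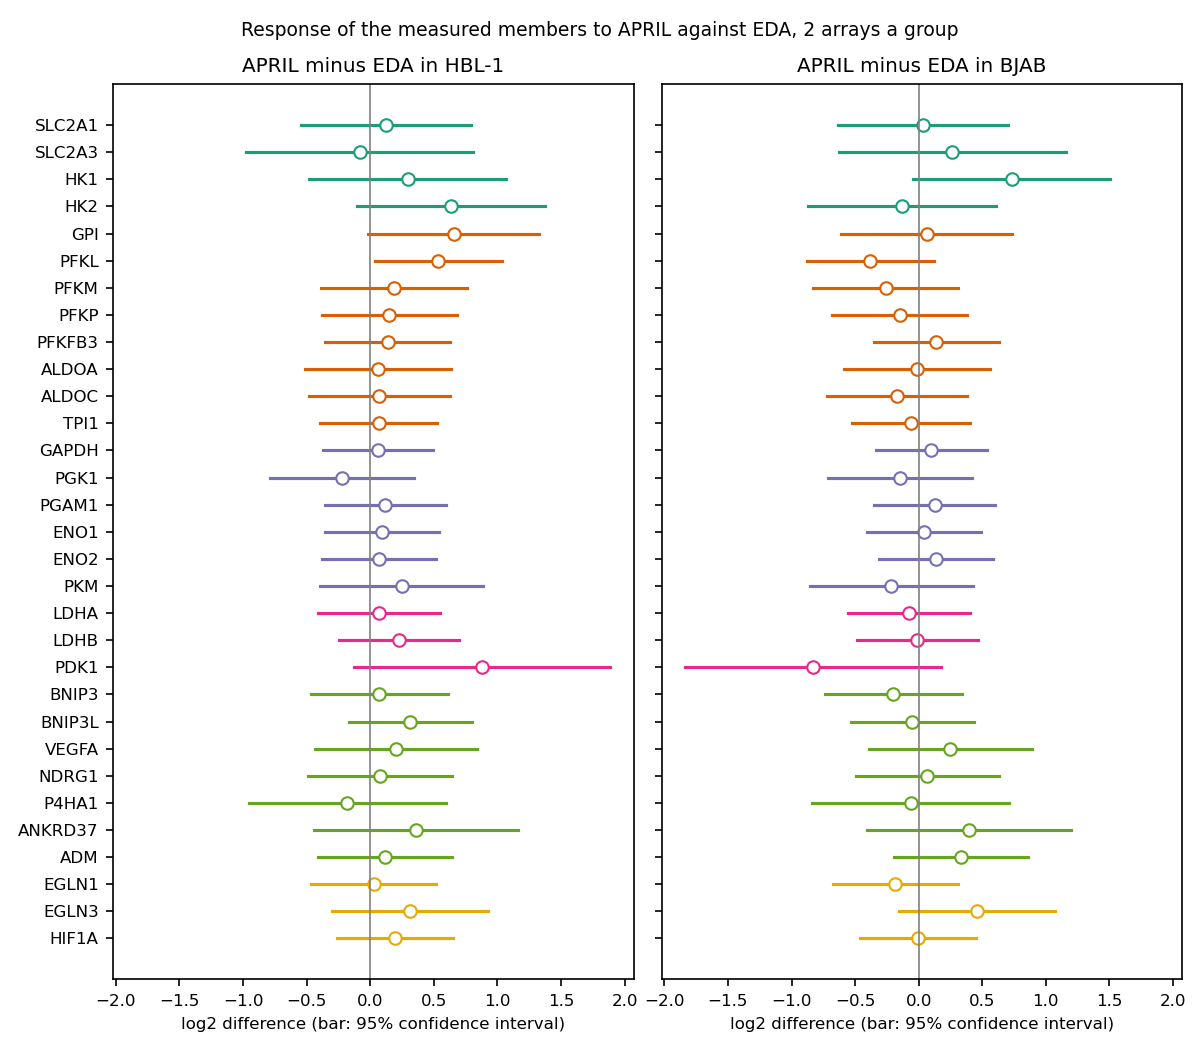
The log2 difference between APRIL and EDA (APRIL minus EDA) of each of the 31 genes is drawn with its 95% confidence interval, for HBL-1 on the left and BJAB on the right, coloured by role as in the plot of line differences. All points are open because none passed, and the interval of PFKL in HBL-1 alone lies clear of 0.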

How the data were processed

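RNA of 8 samples was measured on Affymetrix arrays, 2 for each line and ligand. The authors deposited log2 signals that the submitters' processing notes credit to RMA and Affymetrix Expression Console, without versions. The log2 scale was taken from the values (2.36 to 19.38). The annotation release and genome build are not given in the sources used here. Of 138745 rows, 36176 carry 1 gene symbol, 1119 several and 101450 none. The brightest row per symbol gave 33616 genes, with no filter on dim genes. Arrays have no read depth, so their number limits the precision.

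A model with a mean for every group was fitted by limma 3.58.1 (R 4.3.3, lmFit and eBayes, 4 residual and 6.02 prior degrees of freedom), with two-sided p-values, Benjamini-Hochberg adjustment over all genes and a threshold of 0.05. Ratios of enzyme forms were tested by exact permutation. The limma procedure was run on simulated data and the permutation test on made-up values with a known answer. The outcomes are not given here. The listed genes, the other lists and the tests were chosen with earlier results of these data known. All 31 measured genes are named, and for each other list up to 3 passing genes a direction with the smallest p. The labels do not say whether replicate numbers pair the samples, and the main model did not pair them. Alternatives changed 1 choice at a time (dim genes, rows of a gene, normalization, variance model, replicate block, and arrays left out). Promoters came from RefSeq.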

Additional observations from a re-analysis of the deposited data

Results flagged for a closer look

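Within each line the 4 arrays of every gene and ratio were examined for 1 array far from the others, which chance gives in about 5% of groups. Of 80 such groups 3 had one, and all 3 values are given without an explanation.

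PFKM, the muscle subunit of phosphofructokinase, read 8.76 in HBL-1 APRIL replicate 2, against 8.37 to 8.39 on the other HBL-1 arrays. ENO1, the main enolase, read 17.10 on the same array, against 16.91 to 16.92 on the others. This is the array whose median over all genes was the highest. The log2 ratio of HK2 to HK1, relative to its mean over the 4 BJAB arrays, was 1.19 in BJAB EDA replicate 2, against -0.52 to -0.32 on the other BJAB arrays, and HK1 read 6.47 there, against 7.42 to 7.86.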

How the results depend on the processing

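Between the lines 9 to 15 of the 31 genes passed over 19 alternatives, and SLC2A1, SLC2A3, ALDOC, BNIP3, EGLN1, NDRG1, ANKRD37 and HIF1A passed in each of them. The number higher in HBL-1 was 3 with the EDA arrays alone. No called difference changed sign. For the ligand no member of the list passed under any alternative. The count over all genes in HBL-1 fell to 0 without dim genes, with every row tested, with array weights, with HBL-1 arrays alone and with the replicate block, and it ranged from 0 to 0 when each array was left out. For APRIL on average it was 2 without dim genes and 1 with trend and robust shrinkage. Of the 9 ratios 6 passed after quantile normalization and 6 after cyclic loess, each at an adjusted p of 0.0429, ENO2 over ENO1 being among them. The replicate block left 12 genes of the list called between the lines, with 7996 genes called in all. Apart from the count in HBL-1 given above, it changed no other call on a listed gene and no count by over 1.5 times. The ratios were not run with the replicate block. Numbers shared by groups correlated at -0.02 to 0.06. The causes of these changes were not tested. Where leaving out an array left 1 in a group, that array was assumed to vary like the other groups. Sign turns of differences that did not pass numbered 17 between the lines, 42 for APRIL in HBL-1, 34 for APRIL in BJAB, 59 with the lines averaged and 57 in the difference of responses. Dim signals limit ENO2 and EGLN3, which the filter on dim genes left out. That filter used the mean over all arrays, with a cut at 5.65, so it kept genes that are dim in 1 line. In BJAB, BNIP3 (5.48), NDRG1 (5.24), RORA (5.49) and BHLHE40 (5.59) averaged under the cut. In HBL-1, DDIT4 (5.10) did, and SLC2A3 (5.78) was just above it. SLC2A6 averaged 4.58 in HBL-1 and 6.41 in BJAB, and its mean over all arrays was under the cut, so the filter left it out. The fold differences of these genes rest on a dim signal in that line.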
